A study of Mus musculus with 14 samples.

Results

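Genes that red cells use late in their maturation, to clear organelles by autophagy, to remodel their proteins through ubiquitin and to empty the nucleus of protein, were followed in the blood of mouse embryos that carry a Cbfb-MYH11 fusion allele or lack Cbfb. The set was given as a list of 10 gene symbols (Bnip3l, Ulk1, Map1lc3b, Xpo7, Ube2o, Ube2l6, Trim58, Trim10, Fbxo7 and Riok3), and every array probe set named with one of these symbols was taken, whatever its value. Of the 10 genes, 8 had probe sets of their own, 22 in number, out of 18193 genes and 45101 probe sets on the array. Bnip3l was read only by 3 probe sets that the platform annotation shares with the pseudogene Bnip3l-ps, so it is described apart and not counted. Trim58 was not analysed here. Of the 22 probe sets, 14 passed the filter on low values (a log2 value of at least 6 on at least 3 of the 14 arrays), all 14 of them at 6 or above on every array, and all 8 genes had at least 1 such probe set.

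The first cross, Cbfb-MYH11 chimeras mated to C57/Bl6 females, gave Cbfb+/MYH11 embryos, with 1 fused and 1 normal Cbfb allele (4 arrays), and WT littermates (4 arrays). The second, between Cbfb+/- parents, gave Cbfb-/- embryos, with no functional Cbfb (3 arrays), and Cbfb+/+ littermates (3 arrays). Every array held total RNA from peripheral blood of E12.5 embryos, pooled from 8 to 10 embryos of 1 genotype, and the allele is carried by all cells of an embryo. By their titles the arrays within a genotype are technical replicates, and each p-value below measures only the spread between arrays, not between litters or pools.

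Cbfb is the partner that stabilises the Runx transcription factors on DNA, and its fusion to the smooth muscle myosin gene MYH11 arises from an inversion in human acute myeloid leukaemia. Blood at this stage is mostly primitive red cells from the yolk sac, which mature while they circulate. A maturing red cell removes its mitochondria and ribosomes, condenses and expels its nucleus and degrades most proteins other than haemoglobin. Ulk1 starts autophagy, Map1lc3b (LC3B) coats the growing autophagosome and Bnip3l (Nix) tethers mitochondria to it. Ube2o and the TRIM and F-box proteins mark proteins for the proteasome, and Xpo7 exports nuclear proteins as chromatin condenses.

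RefSeq promoter windows (GRCm38.p6, the 250 bases before the annotated start, 5′ to 3′ on the gene's strand) were found for 6 of the 10 genes. Those of Ulk1, whose change differed between the mutants, Ube2l6, which fell with the fusion, and Trim10, where motifs were found, are shown. Capitals mark motif matches. Ulk1 lies at chr5:110810082-110810331 on the minus strand, Ube2l6 at chr2:84798578-84798827 on the plus strand and Trim10 at chr17:36869324-36869573 on the plus strand.
Ulk1: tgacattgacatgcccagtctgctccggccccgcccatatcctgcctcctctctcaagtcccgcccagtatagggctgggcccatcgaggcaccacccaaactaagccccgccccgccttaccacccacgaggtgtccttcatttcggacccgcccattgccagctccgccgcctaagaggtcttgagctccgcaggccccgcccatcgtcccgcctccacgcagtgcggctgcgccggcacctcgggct
Ube2l6: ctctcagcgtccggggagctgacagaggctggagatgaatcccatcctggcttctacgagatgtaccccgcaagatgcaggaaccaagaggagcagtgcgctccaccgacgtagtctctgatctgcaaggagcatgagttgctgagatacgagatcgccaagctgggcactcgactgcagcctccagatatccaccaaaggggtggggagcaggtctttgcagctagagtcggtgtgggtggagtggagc
Trim10: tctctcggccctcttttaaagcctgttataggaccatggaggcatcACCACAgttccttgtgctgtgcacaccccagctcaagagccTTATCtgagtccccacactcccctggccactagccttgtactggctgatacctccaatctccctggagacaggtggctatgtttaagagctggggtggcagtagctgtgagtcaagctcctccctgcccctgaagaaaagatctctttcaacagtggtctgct
On both strands 4 words were searched, GATAA (known for GATA factors, in 22.6% of 32851 such windows), TGTGGT (Runx, 14%), GTAAACA (Foxo, 3.17%) and CACGTG (E-box, 6.02%), whose matches below do not overlap each other. The Trim10 window held GATAA on the other strand (written TTATC), 163 to 159 bases before the start, and TGTGGT on the other strand (written ACCACA), 204 to 199 bases before it. The Trim58 window held GATAA 92 to 88 bases before its start, and the Ulk1, Map1lc3b, Ube2l6 and Fbxo7 windows held none of the words. The GC content was 67.2% in Ulk1, 69.6% in Map1lc3b, 58.4% in Ube2l6, 53.6% in Trim10 and 47.6% in Trim58, beside a median of 52.4% over all windows.

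In both mutants the genes of the set that passed the test were lower than in littermates, and none was called higher. Xpo7 and Ube2o fell in both mutants, Ube2l6 fell in Cbfb+/MYH11 blood, and Ulk1 fell in Cbfb-/- blood. A gene was called at a Benjamini-Hochberg adjusted p under 0.05 over all tested probe sets, in limma's fit of all 14 arrays, if the change was also 1.5-fold or more, and is read by its probe set with the highest mean. With the fusion, 0 of 8 genes were called higher and 3 lower, while over all 7392 tested genes 30.5% were called higher and 5.63% lower. Without Cbfb, 0 were called higher and 3 lower, against 19.5% and 6.63% of all genes. The median log2 change of the 8 genes was -0.40 with the fusion (range -1.10 to 0.24) and -0.52 without Cbfb (range -0.99 to -0.39), where the medians of all genes were 0.26 and 0.13. All 8 changes were negative in Cbfb-/- blood, as were 40.8% over all genes, and 6 of 8 in Cbfb+/MYH11 blood, where 35.6% were, with the exceptions Ulk1 and Fbxo7 turning to -0.18 and -0.24 under quantile normalization. At an unadjusted p under 0.05, limma gave 1 higher and 6 lower with the fusion and 0 higher and 8 lower without Cbfb. The share over all genes at that threshold is not given here, so these counts have no baseline beside them. By probe sets, 6 of 14 were called lower with the fusion and 5 without Cbfb (5.64% and 7.31% over all probe sets). Quantile normalization moved the median of all genes to -0.04 and -0.05, and then 5 and 6 of the 8 genes were called lower, beside 1289 genes called higher and 1067 lower with the fusion (2253 and 416 on the deposited scale) and 988 and 915 without Cbfb (1438 and 490). With arrays centred on their medians 1 of the 8 genes, Ube2o, was called with the fusion, as Xpo7 (-0.55) and Ube2l6 (-0.54) lay under the fold floor, and 3 were called without Cbfb. Over all 7395 genes tested there, 2724 were called higher and 263 lower with the fusion, and 1591 higher and 412 lower without Cbfb.

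**Figure D1:**
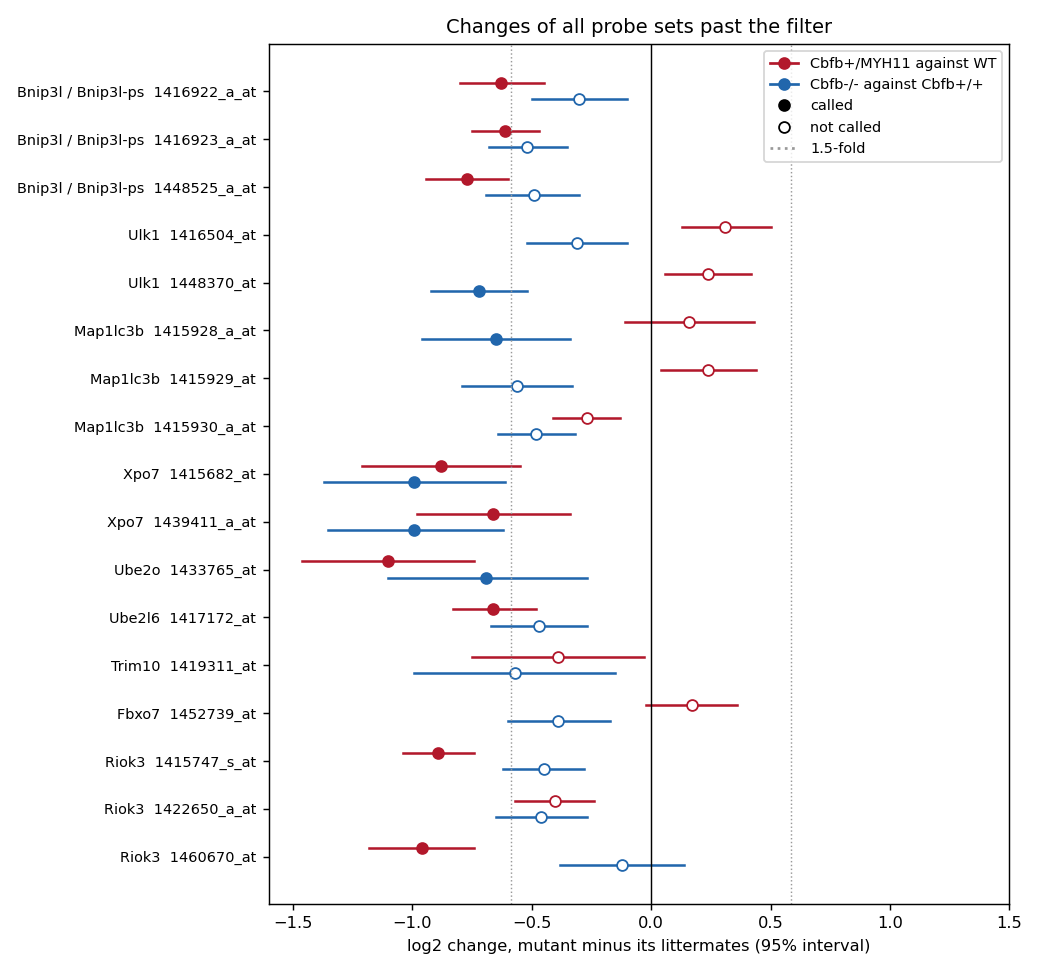
Log2 change of each probe set past the filter (x axis, mutant minus its littermates, lines are 95% intervals), red for Cbfb+/MYH11 against WT and blue for Cbfb-/- against Cbfb+/+, filled where called. The Xpo7 and Ube2o points are filled in both colours, the Ulk1 pairs lie on opposite sides of 0 (under quantile normalization the fusion values are -0.18 and 0.00), and the 3 Riok3 probe sets differ in the red change from -0.40 to -0.96.

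Of 12 erythroid markers tested, 2 were called higher and 1 lower with the fusion (median -0.08), and none without Cbfb (median -0.12). At an unadjusted p under 0.05 limma gave 4 higher and 6 lower with the fusion, and 0 higher and 3 lower without Cbfb. With the fusion the log2 changes ran from -1.23 for Bpgm, an enzyme of red cell glycolysis, to 2.04 for Hemgn, a nuclear protein of blood progenitors, so the list moved both ways. Their mean log2 level lay between 11.50 and 11.76 on the Cbfb+/MYH11 arrays against 11.48 to 11.62 on the WT arrays, and between 11.43 and 11.48 on the Cbfb-/- arrays against 11.61 to 11.63 on the Cbfb+/+ arrays. Marker lists of other cells differed more. The platelet list averaged 5.70 to 5.82 in Cbfb+/MYH11 blood against 6.73 to 8.29 in WT blood, and 5.97 to 6.10 in Cbfb-/- blood against 7.86 to 7.94 in Cbfb+/+ blood. The macrophage list averaged 5.37 to 5.48 against 5.81 to 7.58, and 5.11 to 5.36 against 7.14 to 7.18, in the same order of groups. Below 6 on every array were 1 of 13 erythroid, 1 of 11 platelet, 1 of 13 macrophage, 1 of 8 liver and 0 of 9 neural markers. Cell cycle genes ran the other way, at 8.81 to 8.87 in Cbfb+/MYH11 blood against 6.65 to 7.97 in WT blood and 8.48 to 8.57 in Cbfb-/- blood against 7.69 to 7.73 in Cbfb+/+ blood. Neural markers averaged 7.64 to 7.87 in Cbfb-/- blood against 4.28 to 4.45 in Cbfb+/+ blood, and 5.45 to 7.41 in Cbfb+/MYH11 blood against 3.93 to 5.81 in WT blood. Liver and yolk sac markers averaged 4.79 to 5.79 in Cbfb+/MYH11 blood against 5.19 to 7.58 in WT blood, and 7.53 to 7.83 in Cbfb-/- blood against 6.27 to 6.29 in Cbfb+/+ blood. In the first cross the liver list ran opposite ways in the array pairs described below, at 4.90 and 4.79 in Cbfb+/MYH11 blood against 7.38 and 7.58 in WT blood on arrays 1 and 2, and at 5.79 and 5.79 against 5.19 and 5.23 on arrays 3 and 4. Granulocyte and mast cell markers averaged 5.64 to 5.86 in Cbfb+/MYH11 blood against 4.92 to 5.12 in WT blood, and 4.37 to 4.46 in Cbfb-/- blood against 5.11 to 5.19 in Cbfb+/+ blood, with 5 of 10 below 6 on every array. The part these lists play in the changes below was not tested, and in such bulk samples fewer cells of a type and less RNA per cell cannot be told apart. Set against the erythroid list's mean on the same array, a view added after seeing the data, the change was -0.76 for Xpo7, -1.19 for Ube2o and -0.75 for Ube2l6 with the fusion, and -0.83 for Xpo7, -0.53 for Ube2o and -0.56 for Ulk1 without Cbfb. The last 2 values lie under the 1.5-fold floor, and none was tested. The list's mean takes in Hba-a1, which stayed below the filter, and the changes of Hemgn and Bpgm with the fusion, so it is not a fixed measure of red cell content.

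The arrays of the first cross fell into pairs. Arrays 1 and 2 of a genotype, and arrays 3 and 4, differed by an SD of 0.115 to 0.278 over the tested probe sets, while arrays of different pairs differed by 0.397 to 0.749 and the arrays of a group in the second cross by 0.199 to 0.221. The labels do not say what the pairs are. Within arrays 1 and 2, 2 of the 8 genes were called lower with the fusion, and within arrays 3 and 4, 3 were. Over all 7392 genes, 564 were called lower and 2735 higher within arrays 1 and 2, and 476 lower and 1818 higher within arrays 3 and 4.

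**Figure D2:**
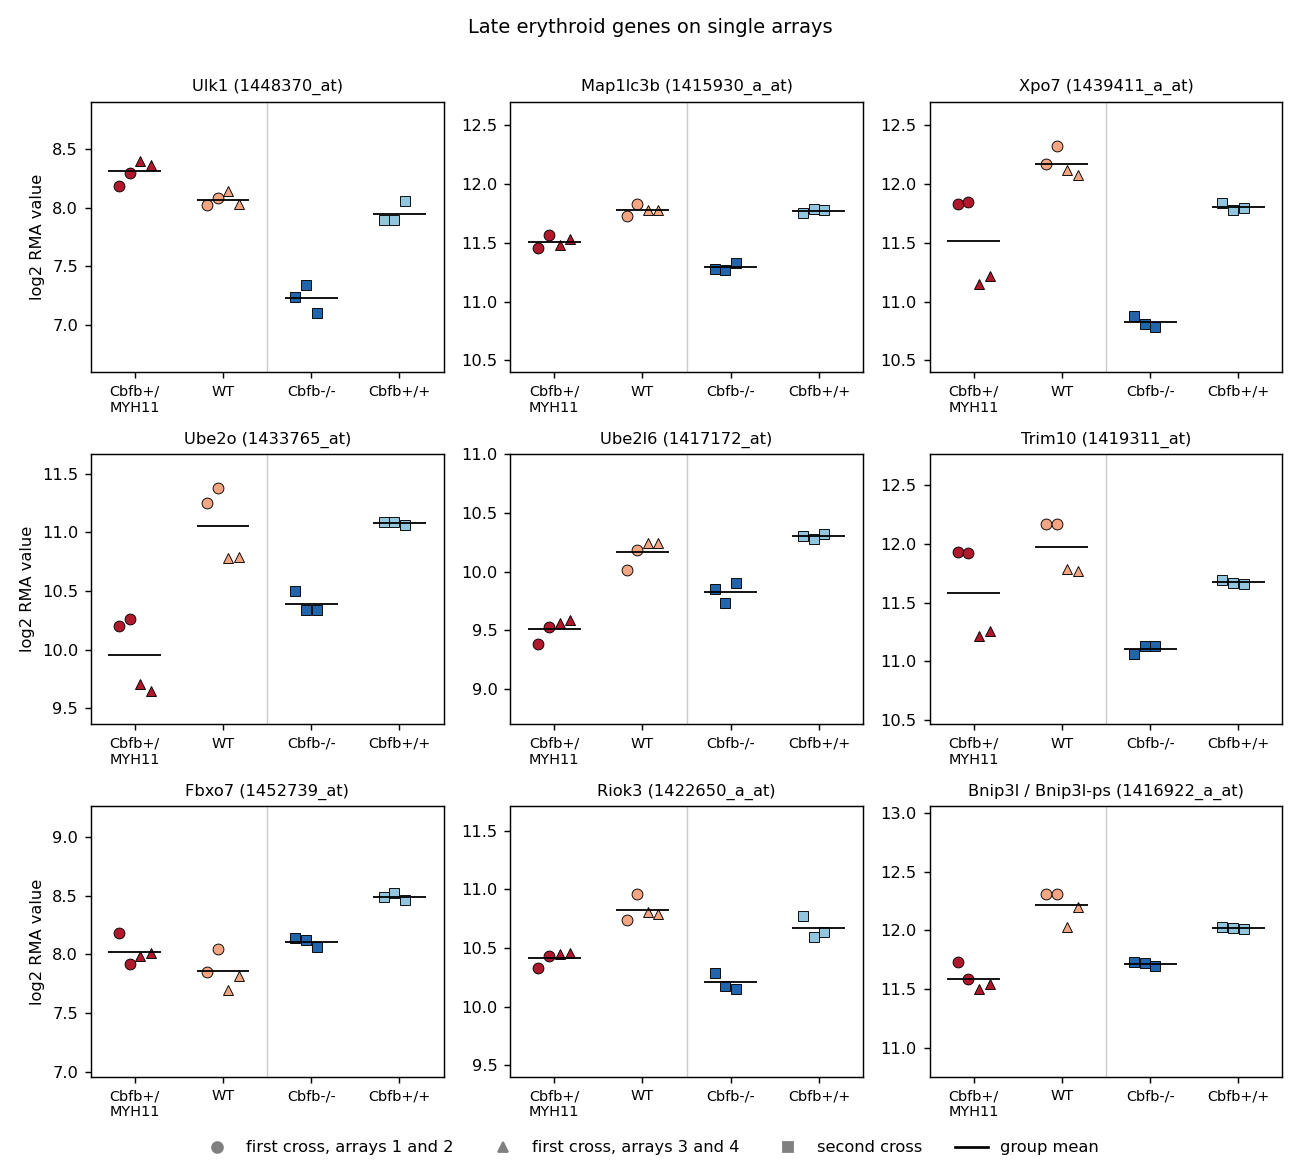
Log2 RMA values (y axis) of 9 probe sets on single arrays, by genotype, with black lines for group means. Every panel spans the same log2 range, circles and triangles are the array pairs of the first cross, and squares are the second cross. In Xpo7, Ube2o and Trim10 the triangles lie below the circles in both genotypes of the first cross.

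Among the autophagy genes, Ulk1 had log2 values of 8.18, 8.29, 8.40 and 8.36 in Cbfb+/MYH11 blood, against 8.02, 8.08, 8.14 and 8.03 in WT blood. In the second cross it had 7.24, 7.34 and 7.10 in Cbfb-/- blood, against 7.89, 7.89 and 8.06 in Cbfb+/+ blood. In each cross the genotypes did not overlap, with the fusion arrays above and the Cbfb-/- arrays below their littermates. Ulk1 fell by 0.72 on the log2 scale without Cbfb (1.65-fold, 95% interval -0.92 to -0.52, adjusted p = 0.000218), and the change with the fusion was 0.24 (interval 0.06 to 0.42, adjusted p = 0.022), which is under the fold floor. The effects themselves differed by 0.96 (interval 0.69 to 1.23, adjusted p = 0.000131), and this was the 1 call among 8 genes for a difference between the mutant effects, where 14.7% of all genes were called higher and 6.01% lower. The second Ulk1 probe set, 1416504_at, gave 0.31 with the fusion, -0.31 without Cbfb and a difference of 0.62 (adjusted p = 0.00397). The fusion value turned to -0.18 (first probe set) and 0.00 (second) under quantile normalization. The call without Cbfb was lost, at -0.51, where the probe sets of a gene were averaged. The called difference at the second probe set was lost under quantile normalization (0.52), and without Cbfb-/- array 3 (0.56) or Cbfb+/+ array 3 (0.57).

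Map1lc3b was read at the lead probe set as 11.46, 11.57, 11.48 and 11.53 in Cbfb+/MYH11 blood, against 11.73, 11.83, 11.78 and 11.78 in WT blood, and as 11.28, 11.27 and 11.33 in Cbfb-/- blood, against 11.75, 11.79 and 11.78 in Cbfb+/+ blood. The mutant arrays lay below their littermates in both crosses, but the changes of -0.27 and -0.48 (adjusted p = 0.00267 and 0.000534) were under the fold floor. Its other probe sets read differently with the fusion. At 1415928_a_at the values were 9.52, 9.38 and 9.37 in Cbfb-/- blood against 10.06, 10.05 and 10.12 in Cbfb+/+ blood, a fall of 1.57-fold (log2 change -0.65, adjusted p = 0.00429), while with the fusion the change was 0.16 (adjusted p = 0.268). At 1415929_at the changes were -0.56 without Cbfb (adjusted p = 0.00199) and 0.24 with the fusion (adjusted p = 0.0379). The difference between the mutant effects was called at both, 0.82 (adjusted p = 0.00712) and 0.80 (adjusted p = 0.00124), and not at the lead probe set (0.21, adjusted p = 0.134). Over the 14 probe sets of the genes, 4 differences were called higher and 1 lower, beside 14.7% and 5.89% of all probe sets. Under quantile normalization the fusion values of the lesser probe sets became -0.11 and -0.05. The remaining probe set, 1428024_at, stayed below the filter.

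The probe sets shared by Bnip3l and Bnip3l-ps gave lower values in both mutants. At 1448525_a_at the values were 10.30, 10.35, 10.24 and 10.38 in Cbfb+/MYH11 blood, against 11.02, 11.28, 11.04 and 11.02 in WT blood, and 10.64, 10.52 and 10.49 in Cbfb-/- blood, against 11.07, 11.03 and 11.03 in Cbfb+/+ blood. No mutant array reached its littermates, and the fall with the fusion was 1.71-fold (log2 change -0.77, adjusted p = 7.31e-06). All 3 shared probe sets were called lower with the fusion, at -0.63, -0.61 and -0.77, and none without Cbfb, at -0.30, -0.52 and -0.49, with differences between the effects of -0.33, -0.09 and -0.28 that were not called (adjusted p = 0.0692, 0.555 and 0.116). Which of the gene and the pseudogene the signal comes from was not tested.

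The other autophagy genes gave calls in both directions with the fusion and lower calls without Cbfb. Of 23 tested among 30, 2 were called higher and 3 lower with the fusion (median -0.05), and 0 higher and 4 lower without Cbfb (median -0.24). Over all genes 30.5% were called higher and 5.63% lower with the fusion, and 19.5% and 6.63% without Cbfb. These shares are the baseline for the counts of every companion list below. Atg4a, a protease that processes the LC3 family, fell in both mutants, by 1.44 and 1.28 on the log2 scale. Its relative Atg4d rose with the fusion by 0.78 (adjusted p = 0.000308), its change without Cbfb was -0.35, and the difference of 1.14 was called. Pik3c3 also rose with the fusion, by 0.77, from a mean of 5.27 in WT blood, below the filter's 6. Of the LC3 relatives, Gabarapl2 fell with the fusion (log2 change -0.76, adjusted p = 0.000657), at 10.33 ± 0.22 in Cbfb+/MYH11 blood against 11.08 ± 0.30 in WT blood (SD, n = 4 each). Gabarapl1 fell without Cbfb (log2 change -0.61, adjusted p = 0.00138), and its difference between the mutant effects was called, at 0.61 (adjusted p = 0.00781). The cargo receptor Sqstm1 (p62) fell with the fusion by 0.88 on the log2 scale (adjusted p = 7.49e-07), its change without Cbfb was -0.24, and the difference of -0.64 was called. Of 14 tested mitophagy genes, 2 were called higher and 2 lower with the fusion, and 2 higher and 1 lower without Cbfb. In the second of these comparisons Foxo3, a transcription factor known to drive autophagy genes in red cell precursors, averaged 7.62 ± 0.09 in Cbfb-/- blood and 8.72 ± 0.02 in Cbfb+/+ blood (SD, n = 3 each), a log2 change of -1.10 (adjusted p = 0.000187). In the first cross it averaged 9.40 ± 0.08 in Cbfb+/MYH11 blood and 9.39 ± 0.29 in WT blood (SD, n = 4 each), and the difference between the effects was 1.12 (adjusted p = 0.000855). The mitochondrial fission factor Dnm1l and the inner membrane protein Phb2 rose in both mutants, by 1.07 and 1.53 with the fusion and by 0.73 and 1.10 without Cbfb. Under quantile normalization 10 of the 23 autophagy genes were called lower with the fusion and 7 without Cbfb.

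Xpo7, an exporter of nuclear proteins that mouse erythroblasts need to condense the nucleus, fell in both mutants. Its lead probe set read 11.83, 11.85, 11.15 and 11.22 in Cbfb+/MYH11 blood, against 12.17, 12.32, 12.12 and 12.08 in WT blood. In the second cross the values were 10.88, 10.81 and 10.78 in Cbfb-/- blood, against 11.84, 11.78 and 11.80 in Cbfb+/+ blood. No mutant array overlapped its littermates. The fall was 1.58-fold with the fusion (log2 change -0.66, interval -0.98 to -0.34, adjusted p = 0.00204) and 1.98-fold without Cbfb (log2 change -0.99, interval -1.35 to -0.62, adjusted p = 0.00119), and the effects differed by 0.32 (interval -0.17 to 0.81, adjusted p = 0.33). The second probe set, 1415682_at, gave -0.88 and -0.99, both called. With the fusion the lead probe set gave -0.41 within arrays 1 and 2, which was not called, and -0.92 within arrays 3 and 4, which was, while the second probe set was called in both (-0.68 and -1.08). The call of the lead probe set was lost without Cbfb+/MYH11 array 3 (-0.54), without array 4 (-0.57) and with arrays centred on their medians (-0.55). Of the 6 Xpo7 probe sets below the filter, 4 overlapped in both crosses (1432573_at, 1442836_at, 1443089_at and 1454281_at), 1446826_at overlapped in the first cross and was lower in Cbfb-/- blood in the second, and 1435814_at overlapped in neither, at 4.60 to 5.72 in Cbfb+/MYH11 blood against 5.73 to 6.33 in WT blood, and 3.12 to 3.34 in Cbfb-/- blood against 5.02 to 5.32 in Cbfb+/+ blood.

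Other carriers of nuclear transport ran the other way. Of 27 tested, 15 were called higher and 0 lower with the fusion (median 0.86), and 13 higher and 0 lower without Cbfb (median 0.52). Calls were mostly higher over all genes too, with 30.5% called higher with the fusion and 19.5% without Cbfb. Among those called higher with the fusion, Xpo4, Ipo11 and Tnpo2 averaged 5.18, 5.74 and 5.78 in WT blood, below the filter's 6. Xpo1, the main exporter of proteins with a leucine-rich signal, averaged 9.15 ± 0.25 in Cbfb+/MYH11 blood and 7.71 ± 0.88 in WT blood (SD, n = 4 each), a log2 change of 1.44 (adjusted p = 0.00201), and 8.76 ± 0.05 in Cbfb-/- blood and 7.58 ± 0.03 in Cbfb+/+ blood (SD, n = 3 each), a change of 1.17 (adjusted p = 0.0235). Ran, the GTPase that gives transport its direction, changed by 1.18 and 0.83, and the importer Ipo5 by 1.21 and 1.52, all 4 called. Within arrays 1 and 2 of the first cross 18 were called higher and 1 lower, and within arrays 3 and 4, 9 higher and 0 lower. The list's mean on the WT arrays was 6.96 and 7.08 in the first pair and 7.57 and 7.54 in the second, beside 7.94 to 8.04 on the Cbfb+/MYH11 arrays. Cell cycle genes moved with it, 16 of 18 called higher with the fusion and 8 without Cbfb, and their part in the list's values was not tested. Under quantile normalization 10 of the list were called higher and 1 lower with the fusion, and 11 higher and 0 lower without Cbfb.

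**Figure D3:**
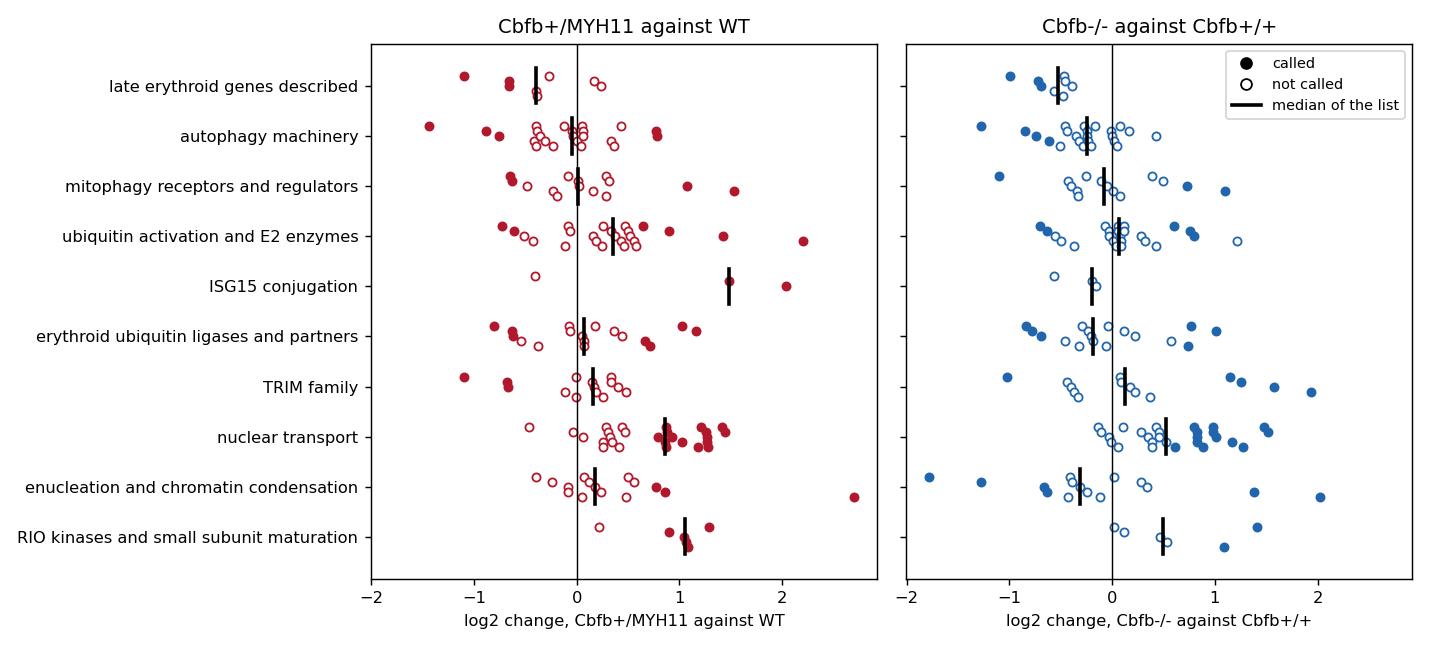
Log2 change (x axis, mutant minus its littermates) of the 8 genes described, at the top, and of the tested genes of 9 companion lists, with Cbfb+/MYH11 against WT on the left and Cbfb-/- against Cbfb+/+ on the right. Points are genes, filled where called, and bars are medians, which lie at -0.40 and -0.52 for the 8 genes and at 0.86 and 0.52 for nuclear transport.

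Of the ubiquitin genes, Ube2o fell in both mutants. Ube2o is an enzyme that joins ubiquitin conjugation and ligation and, in mouse reticulocytes, clears proteins no longer needed. It read 10.20, 10.26, 9.71 and 9.65 in Cbfb+/MYH11 blood, against 11.25, 11.38, 10.78 and 10.79 in WT blood, and 10.50, 10.34 and 10.34 in Cbfb-/- blood, against 11.09, 11.09 and 11.06 in Cbfb+/+ blood. Neither mutant overlapped its littermates. The fall was 2.14-fold with the fusion (log2 change -1.10, interval -1.46 to -0.74, adjusted p = 0.000135) and 1.61-fold without Cbfb (log2 change -0.69, interval -1.10 to -0.27, adjusted p = 0.0139), and the effects differed by -0.41 (interval -0.96 to 0.14, adjusted p = 0.267). The array pairs shifted both genotypes together, so that the change was -1.09 within arrays 1 and 2 and -1.10 within arrays 3 and 4.

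Ube2l6, a conjugating enzyme for ubiquitin and for the ubiquitin-like ISG15, had 9.38, 9.53, 9.56 and 9.59 in Cbfb+/MYH11 blood, against 10.01, 10.18, 10.24 and 10.24 in WT blood, and 9.85, 9.73 and 9.90 in Cbfb-/- blood, against 10.30, 10.28 and 10.32 in Cbfb+/+ blood. Again the genotypes did not overlap. It fell 1.57-fold with the fusion (log2 change -0.66, interval -0.83 to -0.48, adjusted p = 2.9e-05). The change without Cbfb was -0.47 (interval -0.67 to -0.27, adjusted p = 0.00245), under the fold floor, and the effects differed by -0.18 (interval -0.45 to 0.08, adjusted p = 0.303). With arrays centred on their medians the fusion value was -0.54 and not called, and under quantile normalization the value without Cbfb was -0.64 and called.

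Of 3 tested partners of Ube2l6 in the ISG15 pathway, 2 rose with the fusion. Uba7, the enzyme that activates ISG15 and hands it to Ube2l6, averaged 9.44 ± 0.12 in Cbfb+/MYH11 blood and 7.95 ± 0.16 in WT blood (SD, n = 4 each), a rise of 1.48 on the log2 scale (adjusted p = 2.23e-07), and its change without Cbfb was -0.16 (adjusted p = 0.256). Trim25, a TRIM family ligase also known to attach ISG15, rose by 2.04 with the fusion (adjusted p = 5.17e-07), and its change without Cbfb was -0.57, under the fold floor. Both differences between the effects were called, at 1.65 and 2.61. Of 5 tested granulocyte and mast cell markers, 4 were called higher with the fusion (Ms4a2 by 4.83 and Hdc by 3.08) and 1 lower (Mpo, log2 change -2.08). Without Cbfb 0 were called higher and 3 lower. The 4 passed the filter only through the Cbfb+/MYH11 arrays, and the part of these markers in the values of Uba7 and Trim25 was not tested. Herc6, the third tested gene of the 5 in the ISG15 list, had changes of -0.41 and -0.20 (adjusted p = 0.0747 and 0.452). Among 24 other activating and conjugating enzymes, 4 were called higher and 2 lower with the fusion (median 0.35) and 3 higher and 2 lower without Cbfb (median 0.07). The shares over all genes were 30.5% higher and 5.63% lower with the fusion, and 19.5% and 6.63% without Cbfb. With the fusion Ube2r2, a partner of cullin ligases, fell by 0.73 and Ube2b by 0.61 on the log2 scale, while Ube2t, an enzyme of DNA crosslink repair, rose by 2.20 and by 0.80 without Cbfb. At 4.72 in WT and 5.16 in Cbfb+/+ blood, Ube2t passed the filter only through mutant arrays, so its place among the tested genes was shaped by the filter.

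Trim10, a ligase of the TRIM family needed for terminal erythroid differentiation in mouse cells, read 11.93, 11.92, 11.22 and 11.26 in Cbfb+/MYH11 blood, against 12.17, 12.17, 11.79 and 11.77 in WT blood, and 11.06, 11.13 and 11.13 in Cbfb-/- blood, against 11.69, 11.67 and 11.66 in Cbfb+/+ blood. The genotypes overlapped in the first cross and not in the second. Its changes were -0.39 (interval -0.75 to -0.03, adjusted p = 0.0583) and -0.57 (interval -0.99 to -0.15, adjusted p = 0.032), and neither was called. Within arrays 1 and 2 the first was -0.24 and within arrays 3 and 4 -0.54, where mutant arrays lay below WT in each pair. Quantile normalization gave -0.61 and -0.64, both called. Of 14 other TRIM genes tested, 0 were called higher and 3 lower with the fusion, and 4 higher and 1 lower without Cbfb. Trim13, a ligase of the endoplasmic reticulum, fell in both (log2 changes -1.10 and -1.02), and Trim35 rose without Cbfb by 1.94.

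Fbxo7, the substrate adaptor of an SCF ubiquitin ligase, had 8.18, 7.92, 7.99 and 8.01 in Cbfb+/MYH11 blood, against 7.85, 8.05, 7.70 and 7.82 in WT blood, and 8.14, 8.12 and 8.06 in Cbfb-/- blood, against 8.49, 8.52 and 8.46 in Cbfb+/+ blood. The first cross overlapped and the second did not. Its changes of 0.17 (adjusted p = 0.102) and -0.39 (adjusted p = 0.00943) were not called, nor was their difference of 0.56 (adjusted p = 0.00786), which is just under the fold floor and was called without Cbfb+/MYH11 array 2 (0.59) or WT array 2 (0.62). Quantile normalization gave -0.24 and -0.59, the second called. Among 17 other ubiquitin ligases and partners known in red cells, 4 were called higher and 3 lower with the fusion, and 3 higher and 3 lower without Cbfb. The shares over all genes were 30.5% higher and 5.63% lower with the fusion, and 19.5% and 6.63% without Cbfb. Fbxo9 and Fbxo30, F-box proteins, fell in both, by 0.81 and 0.62 with the fusion and by 0.84 and 0.78 without Cbfb, while the SCF scaffold Cul1 and its exchange factor Cand1 rose in both, by 1.16 and 1.02 with the fusion and by 0.77 and 1.01 without Cbfb. Ranbp10 fell with the fusion, by 0.63.

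Riok3, a RIO family kinase that mouse erythroblasts need for enucleation, had 3 probe sets past the filter, and they differed in the size of the change. The lead probe set read 10.33, 10.43, 10.45 and 10.46 in Cbfb+/MYH11 blood, against 10.74, 10.96, 10.81 and 10.79 in WT blood, and 10.29, 10.18 and 10.15 in Cbfb-/- blood, against 10.77, 10.59 and 10.64 in Cbfb+/+ blood. The mutants lay below their littermates without overlap, at -0.40 and -0.46 (adjusted p = 0.000691 and 0.00209), both under the fold floor. At 1415747_s_at, whose suffix marks probes that may match more than one transcript, the values were 9.70, 9.78, 9.78 and 9.82 in Cbfb+/MYH11 blood, against 10.63, 10.77, 10.67 and 10.58 in WT blood. This was a fall of 1.86-fold (log2 change -0.89, adjusted p = 6.38e-07), and the change without Cbfb was -0.45 (adjusted p = 0.00123). At 1460670_at the values were 6.40, 6.70, 6.40 and 6.45 in Cbfb+/MYH11 blood, against 7.28, 7.69, 7.45 and 7.37 in WT blood, a fall of 1.94-fold (log2 change -0.96, adjusted p = 1.07e-05). There the change without Cbfb was -0.12 (adjusted p = 0.409), and the difference between the effects, -0.84 (adjusted p = 0.00201), was the 1 called lower. The fall at both lesser probe sets held within each array pair, at -0.96 and -0.83 for 1415747_s_at and -0.93 and -0.98 for 1460670_at. Averaging all 4 Riok3 probe sets, with 1419981_at from below the filter, gave -0.71 with the fusion, which was called.

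Riok3's relatives in ribosome assembly moved in the other direction with the fusion. Of 6 tested genes of RIO kinases and small subunit maturation, 5 were called higher and 0 lower with the fusion (median 1.05), and 2 higher and 0 lower without Cbfb (median 0.50). Riok1, Tsr1, Ltv1 and Pno1 averaged 5.19, 5.03, 5.39 and 5.88 in WT blood and 6.23, 6.11, 6.29 and 7.17 in Cbfb+/MYH11 blood. They passed the filter at 6 largely through mutant arrays, which limits what these counts can show. Riok1 rose with the fusion by 1.04 (adjusted p = 0.00209), and Pno1, a small subunit assembly factor, rose by 1.29 and 1.41. The WT values of this list differed between the pairs, at 5.18 and 5.28 on arrays 1 and 2 and 6.07 and 6.04 on arrays 3 and 4, and 3 of the 6 were called within the second pair. Of 15 tested genes of enucleation and chromatin condensation, 3 were called higher and 0 lower with the fusion, and 2 higher and 4 lower without Cbfb. The shares over all genes were 30.5% higher and 5.63% lower with the fusion, and 19.5% and 6.63% without Cbfb. The erythroid factors Gata1 and Klf1 rose with the fusion by 0.77 and 0.86. Their changes without Cbfb, -0.43 and -0.24, were not called, while the differences between the effects, 1.20 and 1.10, were. E2f2, a cell cycle factor needed for enucleation in mouse erythroblasts, fell without Cbfb by 1.28 on the log2 scale (adjusted p = 9.96e-05). Rac2, a small GTPase of blood cells, rose by 2.70 with the fusion and fell by 1.78 without Cbfb, a called difference of 4.48. Beside it, 4 of 5 tested granulocyte and mast cell markers were called higher and 1 lower with the fusion, and 0 higher and 3 lower without Cbfb, and their part in the value of Rac2 was not tested. The 4 (Ms4a2, Hdc, Cpa3 and Slc18a2) averaged below 6 in every group but Cbfb+/MYH11. They passed the filter only through those arrays, so their share among tested markers was shaped by the filter.

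**Figure D4:**
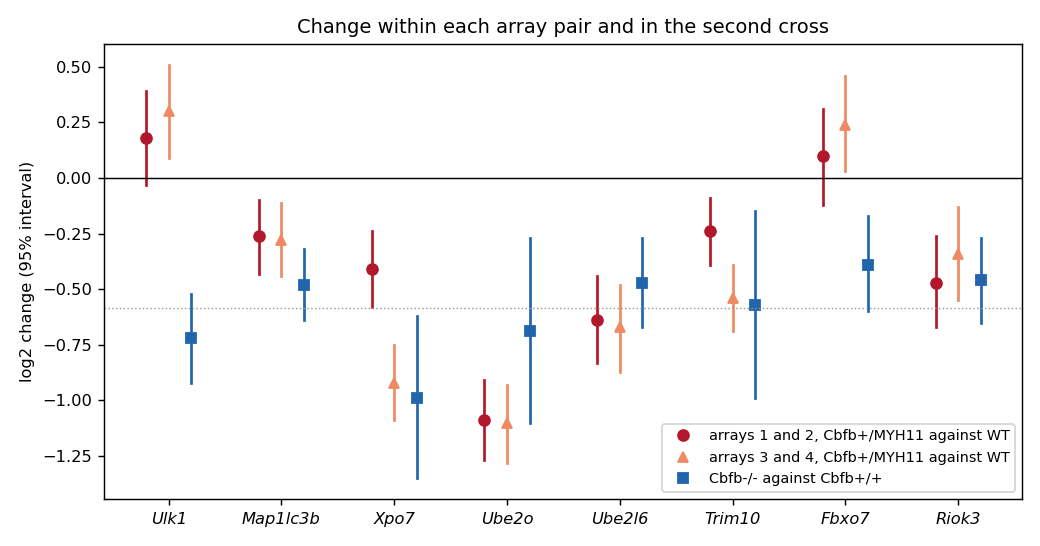
Log2 change (y axis, lines are 95% intervals) of the 8 genes at their lead probe sets (dotted line, 1.5-fold lower), for Cbfb+/MYH11 against WT within arrays 1 and 2 (circles), within arrays 3 and 4 (triangles), and for Cbfb-/- against Cbfb+/+ (squares). Ube2o and Ube2l6 give nearly the same change in both pairs, while Xpo7 gives -0.41 in the circles and -0.92 in the triangles.

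The wild types of both crosses, which share the Cbfb genotype but not the parents, were set against each other as a measure of the difference between crosses. Of the 8 genes, 1 was called higher in Cbfb+/+ than in WT blood and 0 lower, where 5.47% of all genes were called higher and 5.71% lower. This was Fbxo7, at 8.49 ± 0.03 in Cbfb+/+ blood (SD, n = 3) and 7.85 ± 0.14 in WT blood (SD, n = 4), a log2 change of 0.64 (adjusted p = 0.000451), larger than the change in either mutant. The call was lost without WT array 3 (0.58). A fit with a replicate block gave 0.52. Its blocks lie within a cross, so it compares reference arrays and not group means, and it cannot adjust this comparison. The differences of the other genes ran between -0.37 (Xpo7, adjusted p = 0.112) and 0.13 (Ube2l6, adjusted p = 0.3). Among the companion genes named above for autophagy, ubiquitin, transport and enucleation, the called wild-type differences, Cbfb+/+ minus WT, included -1.11 for Atg4a (adjusted p = 0.000392), beside its mutant changes of -1.44 and -1.28. The others were 0.78 for Atg4d, beside its 0.78 with the fusion, 0.66 for Klf1, beside its 0.86 with the fusion, -0.67 for Foxo3 and 0.62 for Uba7. Of the erythroid markers named, Hemgn had 0.85.

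Likeness of profile was measured as the root mean square distance between the centred log2 values of 2 genes over the 14 arrays, which share their libraries and the array pairs. The nearest tested gene was Cited2 for Ulk1 (0.0958), Dazap2 for Map1lc3b (0.0629), Amot for Xpo7 (0.124) and Stat5a for Ube2o (0.113). It was Ube2r2 for Ube2l6 (0.0758), Tmcc2 for Trim10 (0.0942), Znhit2 for Fbxo7 (0.0964) and Ube2e3 for Riok3 (0.0781). Map1lc3b was the third nearest gene to Riok3 (0.0909), and among the 8 genes the next closest pairs were Xpo7 with Trim10 (0.201) and Map1lc3b with Ube2l6 (0.227). Genes with small changes lie close to many others on this measure, and Map1lc3b spanned 0.55 over the arrays while Xpo7 spanned 1.54.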

How the data were processed

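Per the labels' protocols, total RNA from embryonic peripheral blood was extracted, labelled by the Affymetrix one-cycle protocol from 5 micrograms and hybridized to mouse 430 2.0 arrays. The deposited log2 values come from RMA, run in Affymetrix Expression Console per the submitters' processing notes, with versions not given in the sources used here. The 14 columns were used as deposited (array medians 4.27 to 4.46), and 0 columns belonged to other series. The number of arrays limits the precision.

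Probe sets were named by GEO's platform table: 34945 carried 1 symbol, 932 several, 9160 none, and 64 were controls. A gene was read by the brightest of its probe sets, by the mean of the 14 arrays. Groups, crosses and array numbers were taken from the labels. Filter: log2 of at least 6 on at least 3 arrays, which kept 12190 probe sets. The model was limma 3.58.1 in R 4.3.3 (lmFit, contrasts.fit, eBayes) with 4 groups and no covariate (10 residual and 2.7 prior degrees of freedom). The Benjamini-Hochberg adjustment ran over the 12190 probe sets. The fit was tested on simulated data. Members, companion lists and tests were chosen with earlier results of these data known. Named companion genes were drawn from the called ones with the smallest adjusted p, up to 4 per list, and from the known partners of the members. Not all genes so picked are named. Herc6, Fbxo30, Cand1, Ran and Ipo5 were chosen after their values were seen, and Ltv1, Slc18a2 and Pik3c3 also lie outside this rule.

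Deviations from the group means of same-numbered arrays correlated at 0.522, 0.41, 0.496 and 0.5 in the first cross and at 0.0186, 0.00939 and 0.0344 in the second. The numbers are therefore not treated as pairing the arrays of both crosses, and the replicate block is an alternative. Alternatives were quantile normalization, centring on medians, other filters, other probe set rules, blocks, array pairs, pools, single crosses, an intensity trend, no fold floor and leaving out each array. Sequences are RefSeq's (GRCm38.p6).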

Additional observations from a re-analysis of the deposited data

Results flagged for a closer look

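In several genes the change in Cbfb+/MYH11 blood, against WT, differed from the change in Cbfb-/- blood, against Cbfb+/+, by a test of the difference itself. It was higher with the fusion by 0.96 and 0.62 at the Ulk1 probe sets 1448370_at and 1416504_at (adjusted p = 0.000131 and 0.00397), and by 0.82 and 0.80 at 1415928_a_at and 1415929_at of Map1lc3b (adjusted p = 0.00712 and 0.00124). At the Fbxo7 probe set it was higher by 0.56 (adjusted p = 0.00786), under the fold floor. At the Riok3 probe sets 1415747_s_at and 1460670_at it was lower with the fusion, by -0.44 (adjusted p = 0.00809) and -0.84 (adjusted p = 0.00201), the first under the fold floor. The lead probe set of Riok3 gave a difference of 0.06 and that of Map1lc3b 0.21, so the probe sets of these genes disagree. The wild types, Cbfb+/+ against WT, also differed at the Riok3 probe sets 1460670_at, by -0.49, and 1415747_s_at, by -0.52, at Fbxo7, by 0.64, and at Ulk1 1416504_at, by 0.49 (adjusted p = 0.00208), which is more than either mutant change there (0.31 and -0.31). At the other flagged probe sets these differences were -0.12 (Ulk1 1448370_at), -0.12 (Map1lc3b 1415928_a_at) and 0.18 (Map1lc3b 1415929_at).

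WT array 2 stood apart at 1448525_a_at, shared by Bnip3l and Bnip3l-ps, with 11.28 where the other 3 WT arrays had 11.02 to 11.04. Its gap took 0.924 of the group's range. Chance flags about 1 in 20 groups, and 34 were examined.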

How the results depend on the processing

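The 3 genes called with the fusion, all lower, became 5 under quantile normalization, 1 with arrays centred on their medians, 6 with no fold floor (5 lower and Ulk1 higher) and 2 to 3 on leaving out each array. Without Cbfb the 3 became 6 under quantile normalization, 1 of 7 tested with all probe sets averaged per gene, 8 with no floor and 3 on leaving out any array. The share of all genes called with no floor is not given here. Averaging takes in probe sets below the filter, and with its 8 averaged Xpo7 no longer passed the filter and was not tested, so that the 3 of 7 called with the fusion there include Riok3 and not Xpo7. For the difference, 1 became 2 with centred arrays, in arrays 3 and 4 alone and with no floor, and 1 to 2 without single arrays (2 without Cbfb+/MYH11 array 2 or WT array 2). For the wild types, 1 became 0 with the replicate block, with array pairs as a block and in arrays 1 and 2 alone (limma, where 4, 5 and 5 of the 8 had an unadjusted p under 0.05), and 0 to 1 without single arrays. With either block the wild-type comparison rested on a reference level within a cross and not on group means. The block counts therefore cannot show how stable that comparison is. The replicate block changed no other count, giving 3, 3 and 1. With arrays averaged to 6 putative pools limma called 0 of 8 in every comparison, and 2, 1, 1 and 1 had an unadjusted p under 0.05. Over all genes the pools gave 4 calls with the fusion and 0 elsewhere (main counts 2669, 1928, 1529 and 826), where 2065, 306, 430 higher with 96 lower, and 380 had an unadjusted p under 0.05. Averaged probe sets gave 1701 with the fusion and 428 for the wild types, the filter at 7 gave 1019 for the difference, and arrays 1 and 2, or 3 and 4, alone gave 2422 or 2374 for the difference and 1489 or 1968 for the wild types.

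Apart from Apoa2, a liver marker called at -0.93 with the fusion, signs turned in values that were not called, and the cause was not tested. Under quantile normalization the fusion change was -0.18 and 0.00 for Ulk1, -0.11 and -0.05 for the lesser Map1lc3b probe sets, -0.24 for Fbxo7, -0.30 for Foxo3 and -0.19 for Bnip3. The difference was -0.01 at Xpo7 1415682_at and -0.11 at the Riok3 lead, the wild-type value -0.08 for Ube2o, and that of Hemgn without Cbfb -0.01. Averaging probe sets gave 0.18 (Ulk1) and 0.04 (Map1lc3b) for the wild types, -0.29 for the Riok3 difference, -0.04 for Foxo3 with the fusion and 0.11 for Map1lc3a without Cbfb. Centring gave 0.10 for Trim35 and 0.11 for Gabarapl1 with the fusion, and 0.05 for Map1lc3a without Cbfb. With a block the wild-type values are set at reference arrays (arrays 1 and 2 for WT in the pair block) and not at group means. The replicate block gave 0.10 and 0.07 for Map1lc3b and -0.23 for Ube2o there, and the pair block 0.06 and -0.24. Arrays 1 and 2 alone gave 0.03 (Map1lc3b 1415928_a_at) and -0.24 (Ube2o) for the wild types, -0.01 for the Riok3 difference, and with the fusion -0.21 (Foxo3), 0.46 (Trim35), -0.15 (Lhx2) and -0.47 (Bnip3). Arrays 3 and 4 alone gave 0.02 (Bnip3l probe set 1448525_a_at, wild types), -0.09 (Xpo7 difference), 0.26 (Apoa2) and 0.03 (Gabarapl1). Without single arrays the ranges were -0.07 to 0.02 for that Bnip3l probe set, -0.02 to 0.01 for the Map1lc3b lead and -0.06 to 0.14 for Ube2o (wild types), 0.00 to 0.22 for the Xpo7 difference, -0.04 to 0.01 for Map1lc3a without Cbfb, and with the fusion -0.07 to 0.12 (Foxo3), -0.31 to 0.31 (Trim35), -0.10 to 0.13 (Bnip3) and -0.04 to 0.07 (Gabarapl1).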
